A study of Solanum lycopersicum with 27 samples.

Results

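The trehalose synthesis genes of tomato were followed here in shoots and roots of seedlings moved to the cold. The set has 9 genes: TPS7 (Solyc02g072150), 7 further trehalose phosphate synthases named only by their identifiers, and HAD (Solyc04g072920), which the study places at the phosphatase step of the pathway. The 7 count as synthases by the definition of the set, and their annotation was not checked against sequence here. Members were picked out by identifier, and all 9 were present among the 20545 genes of the shoot table and the 20680 genes of the root table. All 9 passed the filter on low values, which asks for 10 or more in 3 or more libraries and which 20535 shoot genes and 20680 root genes passed. The chromosome number in the identifiers places 2 members on chromosome 2, 2 on chromosome 4, 2 on chromosome 7 and 1 each on chromosomes 1, 5 and 8.

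Trehalose consists of a pair of joined glucose units. Plants build it with a trehalose phosphate synthase, which takes UDP-glucose as its sugar donor, and with a trehalose phosphate phosphatase, which acts on the synthase's product. Trehalose protects membranes and proteins of many organisms against drying and cold. In flowering plants it is usually scarce, and its precursor trehalose phosphate is better known as a signal of sucrose supply. In Arabidopsis only some of the synthases make trehalose phosphate, while the others, which also carry a phosphatase-like region, are thought to act as regulators. To which kind TPS7 and the other synthases of the set belong was not examined here. Many plant trehalose phosphate phosphatases belong to the haloacid dehalogenase (HAD) superfamily.

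RNA was sequenced from 18-day-old M82 tomato seedlings grown hydroponically, each library being a pool of 4 seedlings, so the p-values measure the spread between such pools. The treated groups were shoots after 30 min at 4°C, shoots after 3 h at 4°C and roots after 3 h at 4°C, with 3 libraries each. The ambient controls were shoots after 30 min at 24°C, shoots after 3 h at 24°C and roots after 3 h at 24°C, again with 3 libraries each. Seedlings taken before treatment (T0) gave 6 shoot and 3 root libraries. The study places the 3 h shoots with 3 T0 shoot libraries in batch 1, and the 30 min shoots with another 3 in batch 2. It speaks of sequencing in 3 batches, but the sample labels give no batch. T0 shoot replicates 1 to 3 were taken as batch 1 and 4 to 6 as batch 2. Each comparison with T0 used the T0 libraries assigned to its own batch.

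Values are the deposited normalized counts, which sum to nearly the same total in every library of an organ (from 20328938 to 20332140 in shoots and from 37775630 to 37777083 in roots) and therefore hold no depth. A gene was called when limma gave a Benjamini-Hochberg adjusted p under 0.01 over all genes tested in the organ. Differences are on the log2(value + 1) scale and are given with their standard error (SE). The share of the total in plastid genes checked the organ, at 0.221% to 6.76% in shoots and 0.0217% to 0.0309% in roots. In shoots it also moved with temperature, at 6.72% to 6.76% after 3 h at 4°C against 0.250% to 0.322% after 3 h at 24°C, and its part in the results was not tested. The median gene was shifted by -0.28 between 4°C and 24°C in shoots at 3 h and by -0.11 in roots, so results were also read after each library was rescaled by median ratios over nuclear genes, which left those medians at -0.02 and 0.00 (log2). The share of genes lying more than 2-fold from the other libraries of their group was 5.59% in root T0 replicate 3 and 0.953% to 2.04% in the other root libraries. In such bulk samples fewer cells of a type and less RNA per cell cannot be told apart.

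TPS7, a trehalose phosphate synthase, was the only member called between the temperatures in shoots at 30 min and was also higher in the cold at 3 h in both organs. In shoots at 30 min it had 2372, 3882 and 3691 normalized counts at 4°C, against 1940, 2108 and 1646 at 24°C. The groups did not overlap, and replicate 1 at 4°C was the lowest of its group. The difference was 0.78 ± 0.14 (log2, SE), a 1.72-fold higher level at 4°C (adjusted p = 0.000949). With only the libraries compared in the fit, the same difference gave an adjusted p of 0.0176 and was no longer called.

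At 3 h in shoots TPS7 had 5642, 5009 and 4967 normalized counts at 4°C, against 1181, 1120 and 1202 at 24°C. All cold libraries lay far above all ambient libraries, and the spread within each group was small beside the gap. The difference was 2.15 ± 0.14 (log2, SE), a 4.45-fold higher level at 4°C (adjusted p = 5.44e-10). After rescaling over nuclear genes the difference at 3 h was 2.42 (adjusted p = 6.96e-10). The temperature difference was greater at 3 h than at 30 min by 1.38 ± 0.20 (log2, SE, adjusted p = 7.57e-05), and since each time had its own batch, time and batch cannot be told apart in this change.

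T0 shoots of batch 1 had 2667, 2303 and 2585 normalized counts of TPS7, which lie between the 4°C and the 24°C values at 3 h. TPS7 therefore moved in both directions from its level before treatment, rising by 1.05 ± 0.14 (log2, SE) at 4°C (adjusted p = 2.02e-05) and falling at 24°C, where the difference from T0 was -1.11 ± 0.14 (adjusted p = 5.84e-06). At 30 min the pattern was not yet past the threshold. T0 shoots of batch 2 had 3141, 2506 and 2721, which the 30 min values at 4°C overlapped and all 30 min values at 24°C lay below. The difference from T0 was 0.22 ± 0.14 at 4°C (adjusted p = 0.326) and -0.56 ± 0.14 at 24°C (adjusted p = 0.0103). The comparisons with T0 share their T0 libraries, so the values at both temperatures are given side by side and are not independent.

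HAD, the member placed at the phosphatase step, had the highest difference between 4°C and 24°C of the 9 genes in shoots at 3 h. The study measured it separately by quantitative PCR with the primer pair shown here, listed by the study for this identifier and not aligned to a transcript here.
HAD forward primer: actgtactctgccaacctgc
HAD reverse primer: acacgacggaaatgtacgga

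At 3 h in shoots HAD had 688, 704 and 725 normalized counts at 4°C, against 64.7, 63.0 and 87.1 at 24°C. The cold libraries lay close together and far above the ambient ones. The difference was 3.30 ± 0.22 (log2, SE), a 9.83-fold higher level at 4°C (adjusted p = 7e-10), and on rescaling 3.56 (adjusted p = 3.88e-10). HAD had 179.97, 170.35 and 137.23 normalized counts in the T0 shoots of batch 1, again between both temperatures. It rose by 2.12 ± 0.22 (log2, SE) against T0 at 4°C, 4.35-fold (adjusted p = 8.93e-07), and fell to 0.442 times T0 at 24°C, a log2 difference of -1.18 ± 0.22 (adjusted p = 0.000333).

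At 30 min HAD had 218.7, 149.6 and 136.6 normalized counts at 4°C, against 101.8, 128.2 and 83.2 at 24°C. The groups did not overlap, but the highest ambient library was close to the lowest cold one. The difference of 0.67 ± 0.22 (log2, SE, 95% interval 0.22 to 1.13) was not called (adjusted p = 0.052). The cold difference of HAD was greater at 3 h than at 30 min by 2.62 ± 0.31 (log2, SE, adjusted p = 8.08e-06), the highest value of the 9 genes for this change with time. T0 shoots of batch 2 had 179.2, 171.0 and 104.7 normalized counts, which overlapped both 30 min groups.

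**Figure D1:**
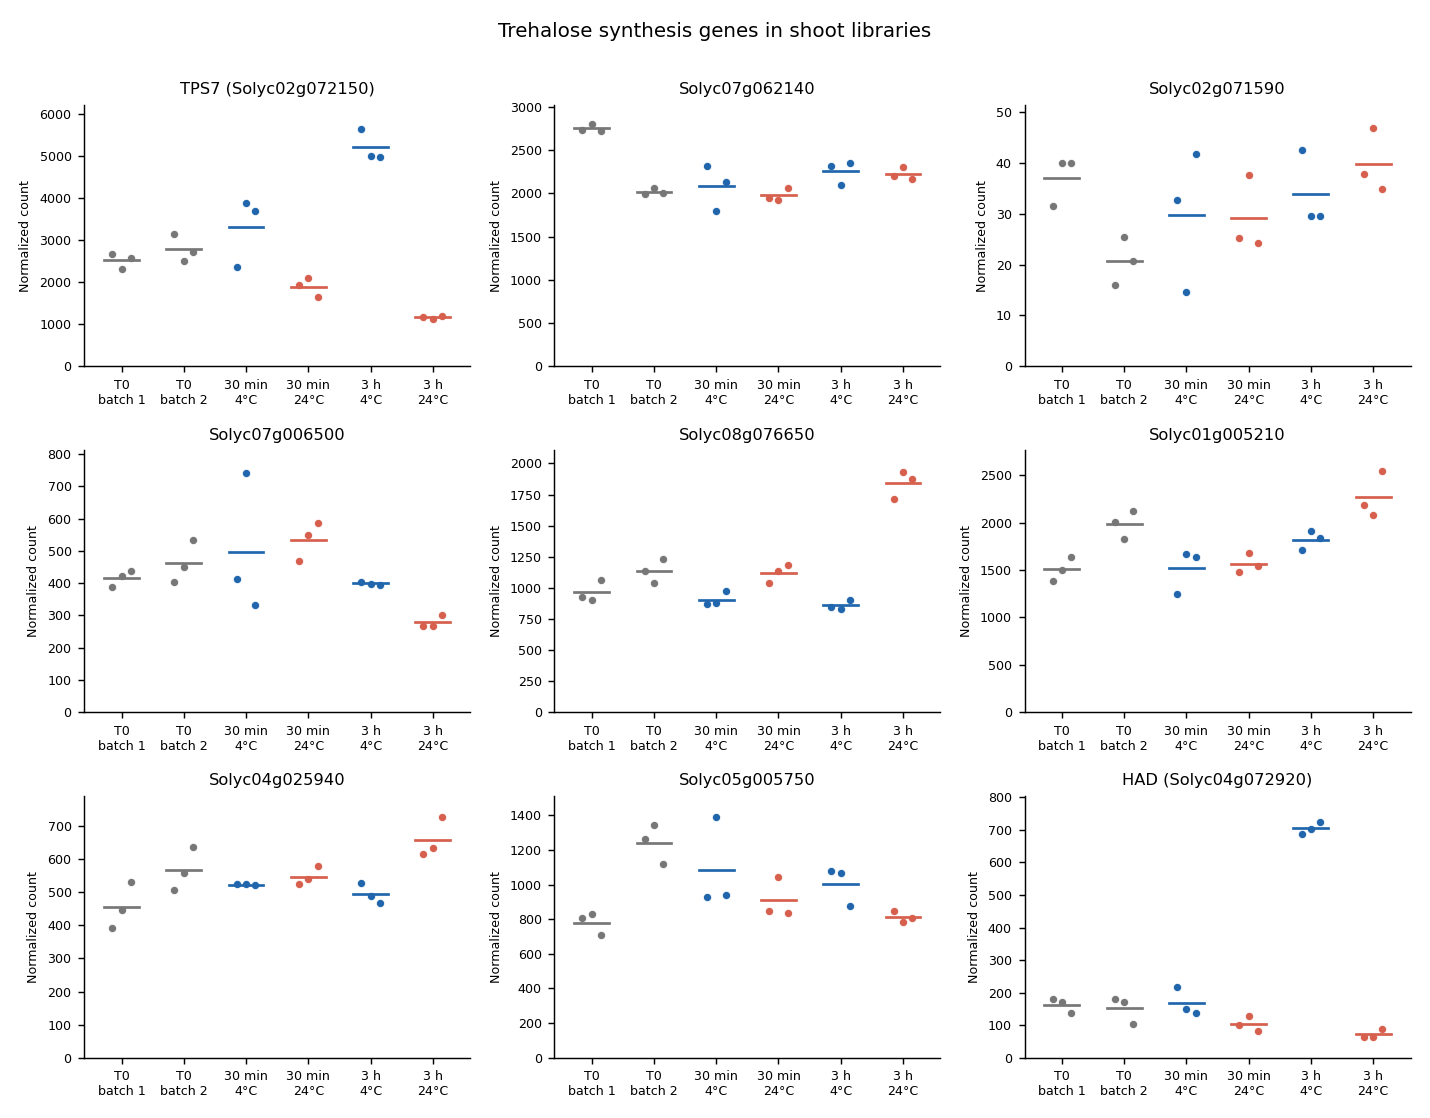
Normalized counts of the 9 trehalose synthesis genes in the 18 shoot libraries, 1 panel per gene, with T0 by batch in grey, 4°C in blue and 24°C in red. Points are libraries and bars are group means. TPS7 and HAD lie above T0 at 3 h in 4°C and below it in 24°C, while Solyc08g076650 is highest after 3 h at 24°C.

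Solyc08g076650, another trehalose phosphate synthase, went the other way. At 3 h in shoots it had 842, 832 and 905 normalized counts at 4°C, against 1716, 1931 and 1874 at 24°C. Every ambient library was above every cold one. The difference was -1.10 ± 0.09 (log2, SE), 0.468 times the ambient level (adjusted p = 7.41e-09). Before treatment, batch 1 shoots had 928, 904 and 1064 normalized counts, which overlapped the cold group, and the difference from T0 was -0.16 ± 0.09 at 4°C (adjusted p = 0.194). Against the mean of the T0 groups of both batches it was -0.28 and was called (adjusted p = 0.00632). At 24°C the gene rose against T0 by 0.93 ± 0.09 (log2, SE, adjusted p = 1.04e-07). At 30 min it had 867, 874 and 972 normalized counts at 4°C, against 1041, 1137 and 1180 at 24°C. These groups did not overlap either, but the difference of -0.31 ± 0.09 was not called (adjusted p = 0.0247). The temperature difference became more negative by 3 h, with a change of -0.79 ± 0.12 (log2, SE, adjusted p = 0.000153).

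Solyc04g025940, also a trehalose phosphate synthase, was lower in cold shoots at 3 h, by a smaller amount. It had 526.9, 487.5 and 467.8 normalized counts at 4°C, against 615.1, 634.2 and 728.8 at 24°C. The groups did not overlap and the difference was -0.41 ± 0.11 (log2, SE, adjusted p = 0.00417). After rescaling over nuclear genes it was -0.15 (adjusted p = 0.264), and the call was also lost without 3 h 24°C replicate 3 (-0.34, adjusted p = 0.0288), 3 h 4°C replicate 2 (-0.40, adjusted p = 0.015) or 3 h 4°C replicate 3 (-0.37, adjusted p = 0.0203). Batch 1 shoots at T0 had 390.8, 446.9 and 530.5 normalized counts, below all 3 h libraries at 24°C and overlapping those at 4°C. The gene rose against T0 at 24°C by 0.54 ± 0.11 (log2, SE, adjusted p = 0.000778), and at 4°C the difference was 0.12 ± 0.11 (adjusted p = 0.467).

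Solyc01g005210 likewise rose against T0 in ambient shoots at 3 h. It had 1709, 1915 and 1835 normalized counts at 4°C, against 2188, 2086 and 2542 at 24°C. T0 shoots of batch 1 had 1379, 1503 and 1639, so both temperatures lay above T0 without overlap. The difference from T0 was 0.59 ± 0.11 (log2, SE) at 24°C (adjusted p = 0.000249) and 0.27 ± 0.11 at 4°C (adjusted p = 0.0728). The difference between the temperatures was -0.32 ± 0.11 and was not called (adjusted p = 0.0183), and on rescaling it was -0.05 (adjusted p = 0.739). With only the libraries compared in the fit the same difference was called (adjusted p = 0.00307). The rescaled difference from T0 at 4°C was 0.44 and was called (adjusted p = 0.00949).

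Solyc07g062140, a further synthase, was not called between the temperatures in shoots. At 3 h it had 2314, 2099 and 2351 normalized counts at 4°C, against 2208, 2300 and 2166.1 at 24°C. The groups overlapped, with a difference of 0.02 ± 0.08 (log2, SE, 95% interval -0.14 to 0.18, adjusted p = 0.859). On rescaling the difference became 0.28 and was called (adjusted p = 0.00252). Batch 1 shoots at T0 had 2729, 2805 and 2726, above every 3 h library, and the difference from T0 was -0.29 ± 0.08 (log2, SE) at 4°C (adjusted p = 0.0094) and -0.31 ± 0.08 at 24°C (adjusted p = 0.00379). The call at 4°C was lost when any 1 of the 6 libraries compared was left out, and that at 24°C without 24°C replicate 1 or 3 or T0 replicate 1 or 2, with adjusted p of up to 0.0587 and 0.0182. T0 shoots of batch 2 had 1996, 2069 and 2000 and lay below every 3 h library. Against the mean of the T0 groups of both batches, the differences were -0.07 at 4°C (adjusted p = 0.461) and -0.08 at 24°C (adjusted p = 0.292), and neither was called.

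Solyc07g006500 and Solyc05g005750 were the other synthases with higher means in cold shoots at 3 h, and neither was called. Solyc07g006500 had 405.0, 397.7 and 395.7 normalized counts at 4°C, against 268.4, 268.0 and 301.8 at 24°C. Its difference was 0.52 ± 0.19 (log2, SE, adjusted p = 0.0318) with no overlap of the groups, on rescaling 0.78 (adjusted p = 0.00534), and called with only the libraries compared in the fit (adjusted p = 0.000562). At 30 min its replicate 2 at 4°C, with 742 normalized counts, stood above 412 and 334 in the other cold libraries. Solyc05g005750 had 1075, 1067 and 875 normalized counts at 4°C, against 848, 782 and 804 at 24°C at 3 h. These groups did not overlap, and its difference was 0.30 ± 0.14 (log2, SE, adjusted p = 0.0671), on rescaling 0.57 (adjusted p = 0.00726), and called with only the libraries compared in the fit (adjusted p = 0.00865).

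Solyc02g071590, a synthase with low values, had 14.6 to 46.9 normalized counts over the shoot libraries and 13.9 to 23.9 over the root libraries. Its groups at 4°C and 24°C overlapped in all 3 temperature comparisons, and it was called in none of the 11 comparisons. At 3 h in shoots the interval of its difference ran from -0.94 to 0.46 (log2, 95%), so a change within these limits is not excluded.

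At 30 min in shoots several synthases had overlapping values at both temperatures. Solyc01g005210 had 1245, 1671 and 1634 normalized counts at 4°C, against 1483, 1683 and 1540 at 24°C. Solyc07g062140 had 2321, 1798 and 2134 at 4°C, against 1953, 1929 and 2058 at 24°C. Both genes had overlapping groups, with differences of -0.06 and 0.07 (log2). Solyc05g005750 had 925, 1390 and 939 at 4°C, against 845, 1042 and 838 at 24°C, where the cold replicate 2 was the high one.

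Counted over the set, the cold difference in shoots at 30 min was called higher for 1 of 9 members, TPS7, and lower for 0, where 2.85% of all genes tested were called higher and 3.22% lower. At an unadjusted p under 0.05 limma gave 1 member lower, Solyc08g076650, and 2 higher, TPS7 and HAD. After rescaling 1 member, again TPS7, was called higher and 0 lower, beside 3.18% and 2.22% of all genes. At 3 h in shoots 2 members were higher (TPS7 and HAD) and 2 lower (Solyc08g076650 and Solyc04g025940), beside 9.63% and 29.9% of all genes. After rescaling 5 were higher and 1 lower, beside 15.4% and 13.2% of all genes, as Solyc07g062140, Solyc07g006500 and Solyc05g005750 joined TPS7 and HAD, and Solyc08g076650 remained the lower one. The median over the 9 members at 3 h was 0.02 (log2), against -0.28 over all genes. For the change of the temperature difference between 30 min and 3 h, 2 members were called higher (TPS7 and HAD) and 1 lower (Solyc08g076650), beside 4% and 7.73% of all genes. After rescaling the member counts were the same, beside 6.12% and 3.39% of all genes.

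**Figure D2:**
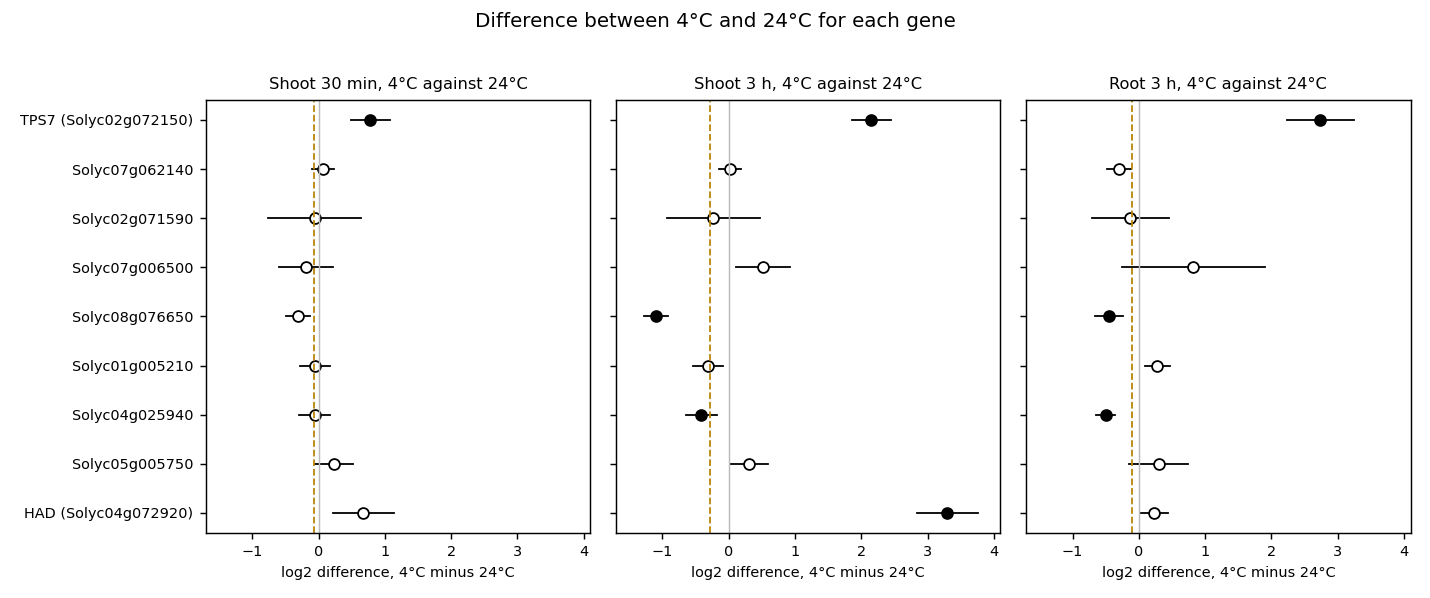
Log2 difference between 4°C and 24°C for each of the 9 genes in shoots at 30 min, shoots at 3 h and roots at 3 h, with 95% confidence intervals. Filled points were called at an adjusted p under 0.01, open points were not, and the dashed line is the median over all genes tested. TPS7 is filled in all 3 panels, HAD only in shoots at 3 h.

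Against T0, more members were called at 24°C than at 4°C after 3 h, as were more of all genes tested. At 3 h in shoots the 4°C group had 2 members higher than T0 (TPS7 and HAD) and 1 lower (Solyc07g062140), beside 2.87% and 11.2% of all genes. After rescaling 3 were higher, with Solyc01g005210 added, and 0 lower, beside 5.03% and 6.47% of all genes. The 24°C group had 3 higher (Solyc08g076650, Solyc01g005210 and Solyc04g025940) and 3 lower (TPS7, HAD and Solyc07g062140), beside 14.7% and 10.9% of all genes, and after rescaling the counts were again 3 and 3, beside 9.76% and 13.4%. At 30 min no member was called against T0 at either temperature, while 1.93% of all genes were higher and 5.17% lower at 4°C, and 3.96% were higher and 4.52% lower at 24°C. At an unadjusted p under 0.05 limma gave 2 members lower and 0 higher at 4°C and 4 lower and 0 higher at 24°C at 30 min. With the mean of T0 of both batches, 2 members were called lower in 24°C shoots at 30 min, TPS7 (-0.48, adjusted p = 0.00618) and Solyc07g062140 (-0.25, adjusted p = 0.00803). At 3 h the same mean added a lower call for Solyc08g076650 at 4°C and for Solyc07g006500 at 24°C (-0.65, adjusted p = 0.00342).

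**Figure D3:**
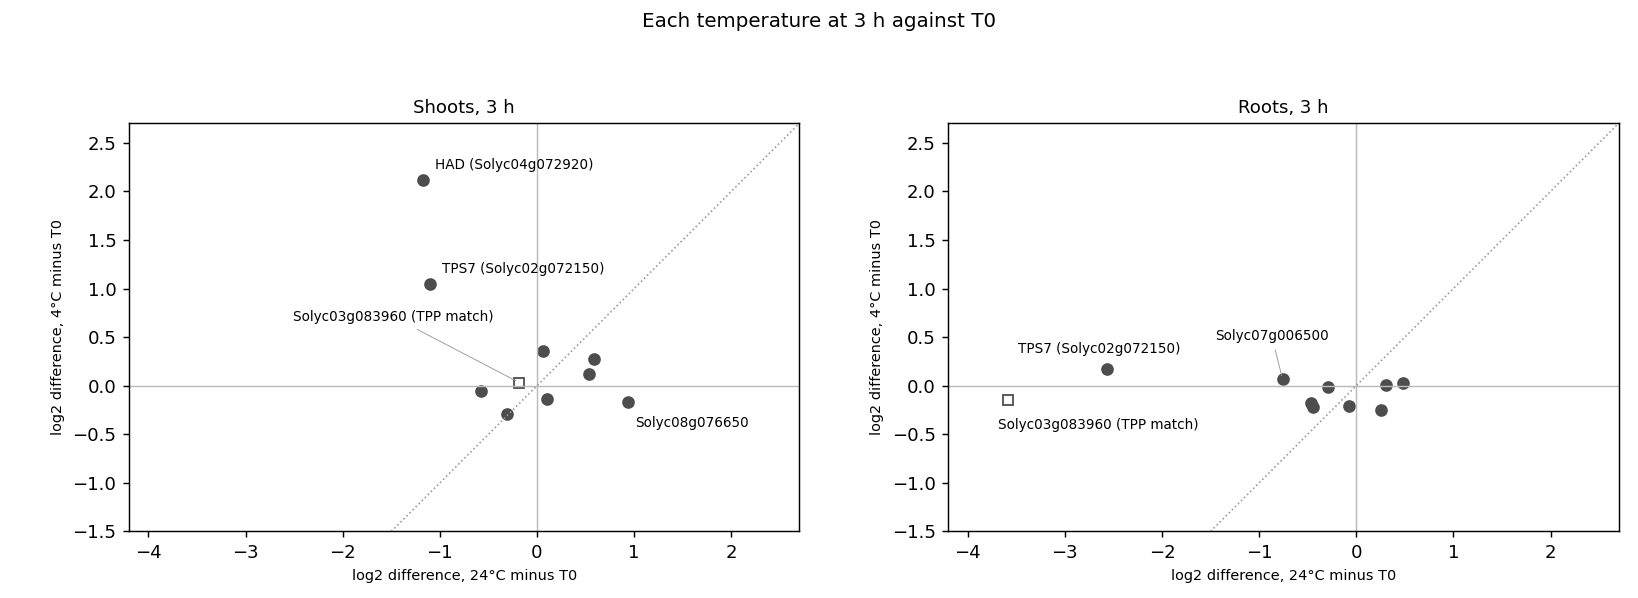
Log2 difference from T0 at 3 h, with 24°C on the horizontal axis and 4°C on the vertical axis, for shoots and roots. Filled circles are the 9 genes, the open square is Solyc03g083960, a match of an Arabidopsis trehalose phosphate phosphatase, and the dotted line marks equal differences. In shoots TPS7 and HAD lie up and to the left, and in roots TPS7 lies to the left near 0 on the vertical axis.

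T0 itself differed between the batches for some members. Solyc05g005750 had 1262, 1346 and 1116 normalized counts in T0 shoots of batch 2, against 806, 827 and 709 in those of batch 1, a difference of 0.67 ± 0.14 (log2, SE, adjusted p = 0.000885). Solyc01g005210 had 2011, 1823 and 2119 in batch 2, against 1379, 1503 and 1639 in batch 1, a difference of 0.40 ± 0.11 (adjusted p = 0.00693) that was no longer called without T0 replicate 1, 2, 4 or 6, at an adjusted p of up to 0.0401. Solyc07g062140 was lower in batch 2, with a difference of -0.45 ± 0.08 (adjusted p = 0.000201). In all, 2 members were higher and 1 lower in batch 2, beside 7.95% and 15.6% of all genes, and after rescaling 4 were higher and 1 lower, beside 12.5% and 10.5% of all genes. TPS7 (0.14 ± 0.14, adjusted p = 0.455) and HAD (-0.13 ± 0.22, adjusted p = 0.683) were not called between the batches.

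In roots TPS7 had the highest difference between 4°C and 24°C of the 9 genes. It had 25054, 23206 and 20238 normalized counts at 4°C, against 3186, 2840 and 4357 at 24°C. Even the lowest cold library was far above the highest ambient one. The difference was 2.74 ± 0.22 (log2, SE), a 6.68-fold higher level at 4°C (adjusted p = 8.16e-06). T0 roots had 24631, 23878 and 14004 normalized counts, with replicate 3 well below the others, and they overlapped the cold group.

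In roots the cold level of TPS7 was close to that before treatment. At 4°C the difference was 0.17 ± 0.22 (log2, SE, 95% interval -0.33 to 0.67, adjusted p = 0.644), and without root T0 replicate 3 it was -0.09 (adjusted p = 0.713). At 24°C TPS7 fell to 0.169 times T0, a log2 difference of -2.57 ± 0.22 (adjusted p = 1.52e-05), and without root T0 replicate 3 the difference was -2.83 (adjusted p = 2.39e-07). Shoots and roots were normalized apart, so no test was run between them. As a share of the table's total, in counts per 1000000, TPS7 averaged 604 ± 64.3 in roots at 4°C, 91.6 ± 21.1 in roots at 24°C and 552 ± 157 in roots at T0 (SD, n = 3 each). In shoots at 3 h it averaged 256 ± 18.6 at 4°C and 57.4 ± 2.09 at 24°C, and 124 ± 9.39 in T0 shoots of batch 1 (SD, n = 3 each). These levels rank in each organ with 24°C lowest, and in roots 4°C and T0 did not differ beyond their spread.

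HAD was not called between the temperatures in roots. It had 3424, 3505 and 3155 normalized counts at 4°C, against 2645, 3057 and 2910 at 24°C. The groups did not overlap, but the difference of 0.23 ± 0.09 (log2, SE, 95% interval 0.02 to 0.44), 1.17-fold, was not called (adjusted p = 0.0619). On rescaling it was 0.34 and was called (adjusted p = 0.00737). T0 roots had 3832, 3491 and 4464 normalized counts, and HAD was lower than T0 at 24°C, with a difference of -0.45 ± 0.09 (adjusted p = 0.0031), a call lost without root 24°C replicate 1 (-0.39, adjusted p = 0.0142), while the difference at 4°C was -0.22 ± 0.09 (adjusted p = 0.155). In counts per 1000000 of the total, HAD averaged 89.0 ± 4.84 in cold roots and 34.7 ± 0.913 in cold shoots at 3 h, and 76.0 ± 5.53 in ambient roots and 3.52 ± 0.662 in ambient shoots at 3 h (SD, n = 3 each).

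The synthases that were lower in cold shoots were also lower in cold roots. Solyc08g076650 had 2105, 2031 and 2031 normalized counts at 4°C, against 2877, 2768 and 2774 at 24°C. Neither group overlapped the other, and the difference was -0.45 ± 0.10 (log2, SE, adjusted p = 0.00269). The call was lost, at an adjusted p of up to 0.0118, without root 24°C replicate 1, 4°C replicate 2 or 4°C replicate 3. T0 roots had 1739, 2002 and 2348, overlapping the cold group, and the gene rose against T0 at 24°C by 0.48 ± 0.10 (adjusted p = 0.00218).

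Solyc04g025940 had 1465, 1526 and 1510 normalized counts in cold roots, against 2044, 2041 and 2304 in ambient roots. The difference was -0.50 ± 0.06 (log2, SE, adjusted p = 0.000111), and on rescaling -0.39 (adjusted p = 0.000706). T0 roots had 1779, 1749 and 1812, so this gene had cold values below T0 and ambient values above T0 with no overlap. The difference from T0 was 0.26 ± 0.06 at 24°C (adjusted p = 0.0067), on rescaling 0.16 (adjusted p = 0.0675), and the call was lost without any 1 library of the groups compared other than T0 replicate 3, at an adjusted p of up to 0.0264. At 4°C it was -0.25 ± 0.06, which was not called (adjusted p = 0.0308).

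Solyc01g005210 pointed the other way in roots than in shoots. It had 5349, 5707 and 5231 normalized counts in cold roots, against 4151, 4319 and 5006 in ambient roots. T0 roots had 5246, 5223 and 5937, overlapping the cold group. The cold and ambient groups did not overlap, and their difference of 0.28 ± 0.08 (log2, SE) was not called (adjusted p = 0.0163) but was 0.39 and called on rescaling (adjusted p = 0.00235). Without root 24°C replicate 3, the highest ambient library, it was 0.36 and called (adjusted p = 0.00411).

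Solyc07g062140 had 1462, 1509 and 1330 normalized counts in cold roots, against 1878, 1756 and 1641 in ambient roots. The difference was -0.29 ± 0.08 (log2, SE) and just missed the threshold (adjusted p = 0.0106), although the groups did not overlap. On rescaling it was -0.18 (adjusted p = 0.0539), and with only the libraries compared in the fit -0.29 was called (adjusted p = 0.00749). T0 roots had 1436, 1319 and 1520, overlapping the cold group.

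Solyc07g006500 and Solyc05g005750 had uneven T0 values in roots. Solyc07g006500 had 7616, 6427 and 7634 normalized counts at 4°C, against 3627, 3177 and 5837 at 24°C. The groups did not overlap, and the difference of 0.82 ± 0.48 (log2, SE) was not called (adjusted p = 0.164), but was called with only the libraries compared in the fit (adjusted p = 0.00464). Its T0 roots had 10834, 11150 and 2695, the last being replicate 3. Solyc05g005750 had 15658, 16137 and 18360 at 4°C, against 12211, 13249 and 15436 at 24°C, a difference of 0.30 ± 0.20 (adjusted p = 0.215) with no overlap. Its T0 roots had 23403, 21783 and 13027, and replicate 3 was again the low one. Without root T0 replicate 3, both genes were called lower than T0 at 24°C, with differences of -1.43 for Solyc07g006500 (adjusted p = 0.000181) and -0.73 for Solyc05g005750 (adjusted p = 0.000154).

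**Figure D4:**
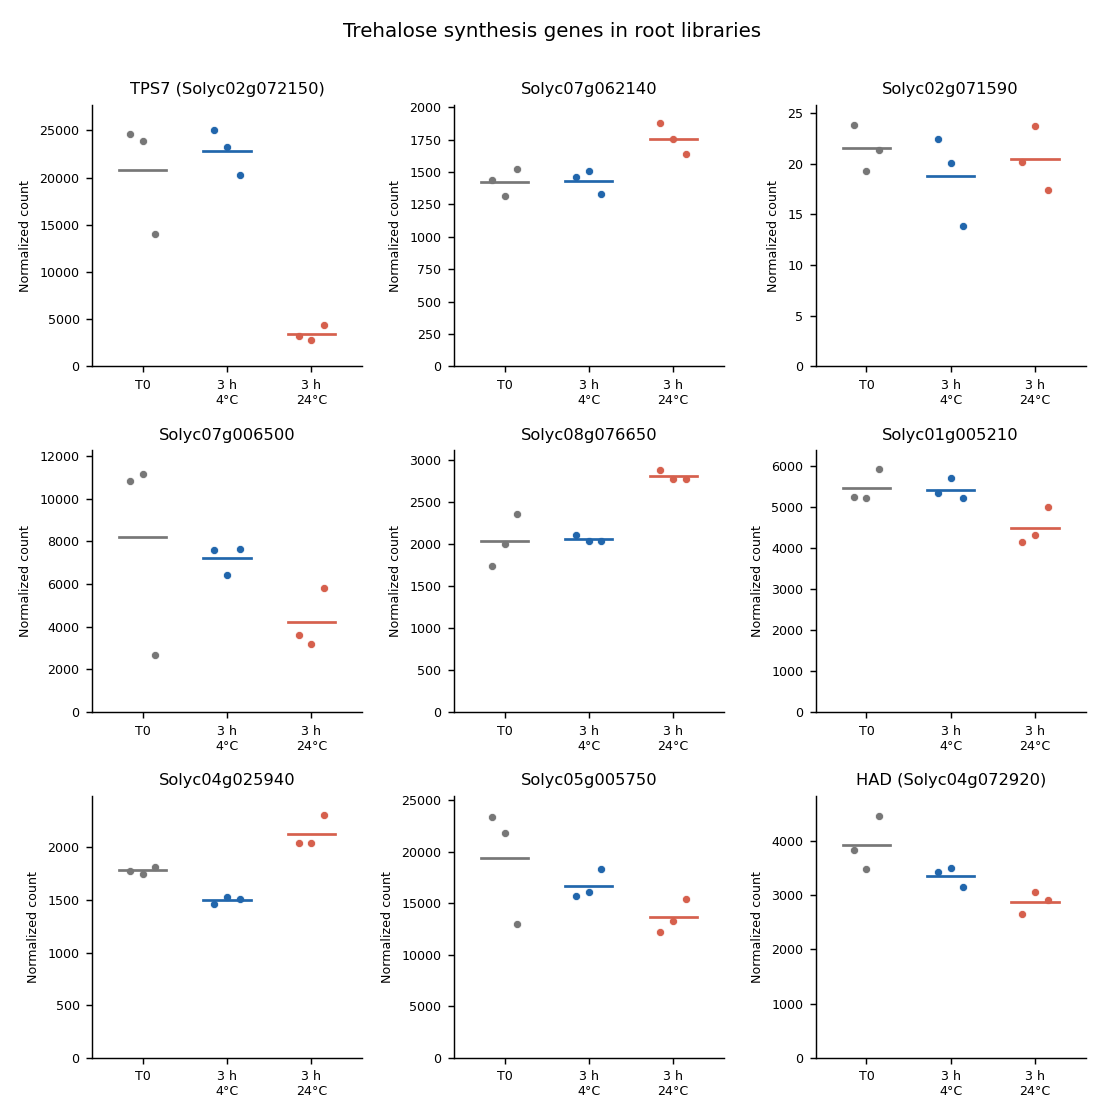
Normalized counts of the 9 trehalose synthesis genes in the 9 root libraries, 1 panel per gene, with T0 in grey, 3 h at 4°C in blue and 3 h at 24°C in red. Points are libraries and bars are group means. TPS7 is near its T0 level at 4°C and far below it at 24°C, and T0 replicate 3 is the low point for TPS7, Solyc07g006500 and Solyc05g005750.

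Over the set, 1 of 9 members was called higher in cold roots (TPS7) and 2 lower (Solyc08g076650 and Solyc04g025940), beside 18% and 28% of all genes tested. After rescaling 3 were higher, TPS7, Solyc01g005210 and HAD, and 2 lower, beside 23% and 22.2% of all genes. Against T0, no member was called higher or lower in roots at 4°C, where 1.73% of all genes were higher and 3.06% lower, and by limma 2 members were lower and 0 higher at an unadjusted p under 0.05, Solyc04g025940 and HAD. At 24°C 2 were higher than T0 (Solyc08g076650 and Solyc04g025940) and 2 lower (TPS7 and HAD), beside 23.9% and 16.2% of all genes. After rescaling 1 was higher and 3 lower, beside 18.5% and 20% of all genes, as Solyc04g025940 lost its call and Solyc01g005210 was called lower (-0.39, adjusted p = 0.00289). Without root T0 replicate 3, 3 members were higher and 4 lower at 24°C.

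Solyc03g083960 is the 1 other gene of the pathway that the study's tables name, listed as the match of Arabidopsis ATTPPA, a trehalose phosphate phosphatase. Those tables include lists of genes changed by cold in these samples, so its changes are no independent evidence. In roots Solyc03g083960 was high at T0 and 4°C and low at 24°C, as TPS7 was. It had 8511, 8290 and 8015 normalized counts at 4°C, against 719, 713 and 866 at 24°C. The difference was 3.44 ± 0.20 (log2, SE), a 10.8-fold higher level at 4°C (adjusted p = 1.11e-06). T0 roots had 11086, 11155 and 6158, with replicate 3 low as for TPS7, and the gene fell to 0.0836 times T0 at 24°C (adjusted p = 1.04e-06), against a difference of -0.14 ± 0.20 at 4°C (adjusted p = 0.672).

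In shoots Solyc03g083960 was not called between the temperatures. At 3 h Solyc03g083960 had 1196, 1222 and 1299 normalized counts at 4°C, against 1174, 1022 and 1010 at 24°C. The groups did not overlap, but the difference of 0.22 ± 0.15 (log2, SE, 95% interval -0.10 to 0.53) was not called (adjusted p = 0.242), nor was the rescaled difference of 0.48 (adjusted p = 0.0121), whereas HAD differed by 3.30. Of HAD and Solyc03g083960, HAD alone was called between temperatures in shoots at 3 h. Other genes of the phosphatase step, for which no names were at hand, were not examined here. In roots Solyc03g083960 was called. HAD in roots was not called (adjusted p = 0.0619), but its groups did not overlap and it was called on rescaling (0.34, adjusted p = 0.00737). The split between the organs therefore depends on the processing. The study, by a different test, lists HAD as higher in the cold in both organs. Whether the temperature differences themselves differ between the organs was not tested.

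**Figure D5:**
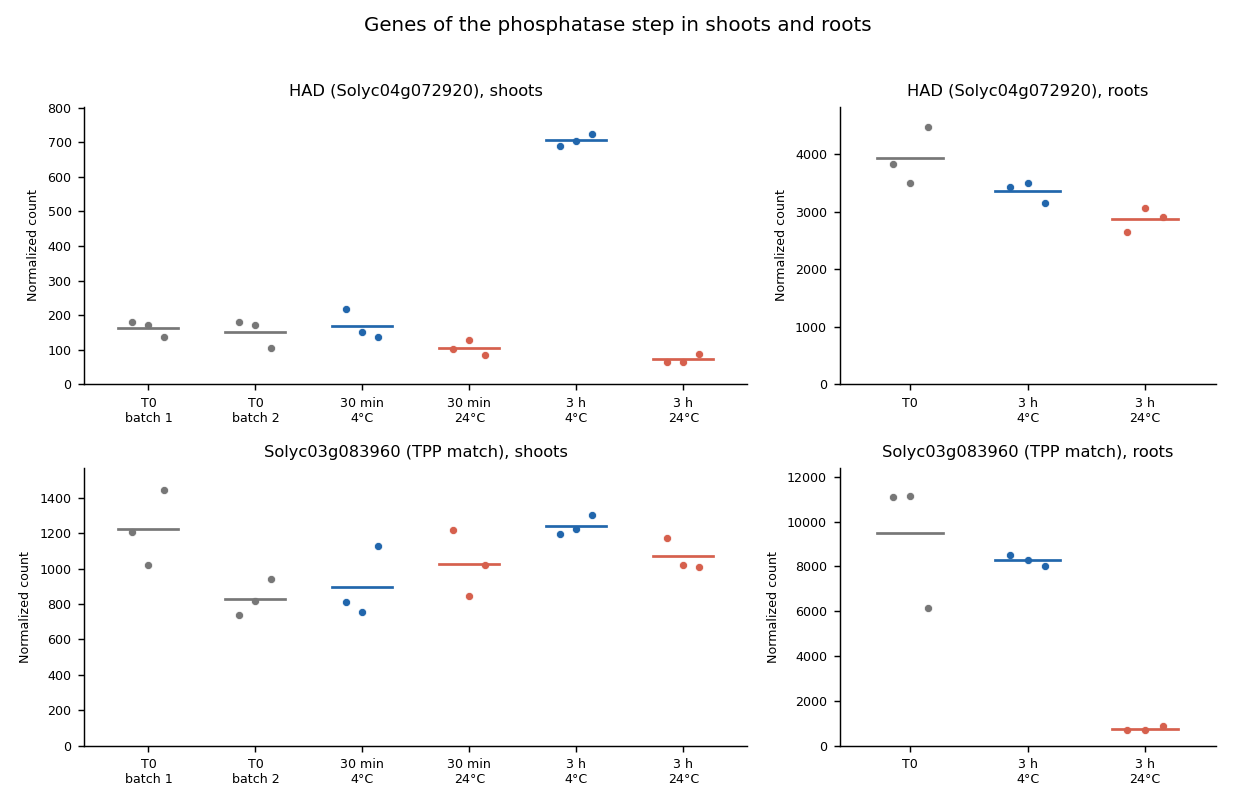
Normalized counts of HAD and of Solyc03g083960 in shoot and root libraries, with T0 in grey, 4°C in blue and 24°C in red. Points are libraries, bars are group means, and each panel has its own axis from 0. In shoots HAD is highest after 3 h at 4°C, and in roots Solyc03g083960 is lowest after 3 h at 24°C.

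Across libraries, several members varied with TPS7 or against it. Over the 18 shoot libraries the correlation of log2 values with TPS7 was 0.87 for HAD and -0.84 for Solyc08g076650, and over the 9 root libraries it was 0.66 for HAD, -0.94 for Solyc08g076650 and 0.99 for Solyc03g083960. In roots Solyc01g005210 (0.81), Solyc05g005750 (0.69) and Solyc07g006500 (0.69) were as close to TPS7 as HAD or closer, and Solyc07g062140 (-0.90) and Solyc04g025940 (-0.84) also ran against it. In shoots the value was 0.48 for Solyc05g005750, 0.36 for Solyc07g006500, -0.58 for Solyc04g025940 and 0.10 for Solyc03g083960. These points share their treatment groups and their normalization, so the values are descriptions.

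Among the 767 shoot genes and 772 root genes with a name in the study's text or tables, mostly names of Arabidopsis matches, those nearest to TPS7 in pattern over the 18 shoot libraries were Solyc09g056450 (PUB9, a U-box ubiquitin ligase, r = 0.97), Solyc04g077980 (ZAT10, a zinc finger repressor, r = 0.97) and Solyc03g112700 (AR781, r = 0.97). Nearest to HAD in shoots were Solyc04g079360 (MYB77, a MYB transcription factor, r = 0.96), Solyc03g093130 (XTH23, a xyloglucan endotransglucosylase of the cell wall, r = 0.95) and Solyc04g025650 (MO1, r = 0.95). Over the 9 root libraries TPS7 was nearest to Solyc07g063940 (PAT1, a GRAS protein, r = 1.00), Solyc08g036640 (TIFY5A, a jasmonate signalling repressor, r = 0.99) and Solyc05g050220 (GBF3, a bZIP factor, r = 0.99). HAD in roots was nearest to Solyc07g008240 (GLB1, a non-symbiotic haemoglobin, r = 0.98), Solyc08g075570 (DUR3, a urea transporter, r = 0.98) and Solyc03g119640 (ALMT9, a vacuolar anion channel, r = 0.96). Among all tested genes, named or not, their ranks ran from 1 for PUB9 to 21 for ALMT9. The named genes include study lists of genes changed by cold in these samples, so these neighbours are no independent evidence.

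The other cryoprotectant synthesis genes that the study names, of the polyamine and raffinose pathways, give a scale for TPS7 and HAD, although the study chose them on these samples. After 3 h all 4 were called higher in cold than in ambient tissue of either organ, beside 9.63% of all genes in shoots and 18% in roots. In shoots at 30 min 1 of 4 was called higher, beside 2.85% of all genes. It was adenosyl methionine decarboxylase 2 (Solyc02g089610), which makes the aminopropyl donor for polyamines. That gene differed by 3.52 (log2) in shoots at 3 h and 5.21 in roots, so HAD in shoots (3.30) was near it and TPS7 in roots (2.74) below it. Galactinol synthase 2 (Solyc02g084980), the enzyme of the first raffinose step, differed by 1.78 in shoots and 3.56 in roots at 3 h. Arginine decarboxylase 2 (Solyc01g110440) differed by 4.26 in shoots and 2.88 in roots. In shoots it was near the floor, with 0 normalized counts in every 24°C library and 15.8 to 19.9 at 4°C. Raffinose synthase (Solyc02g086530) differed by 1.52 in shoots and 2.87 in roots. TPS7 in roots was thus close to arginine decarboxylase 2 and raffinose synthase.

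The group S1 bZIP factors, which in Arabidopsis include bZIP11, a factor linked to trehalose phosphate and sugar signalling, were mixed in direction. The study lists 7 tomato matches as changed in these samples, so their changes are no independent evidence. In shoots at 3 h 2 of 6 tested were higher in the cold and 1 lower, beside 9.63% and 29.9% of all genes. At 30 min 0 were higher and 2 lower, beside 2.85% and 3.22%. In roots 1 of 7 was higher and 4 lower, beside 18% and 28%. After rescaling 3 were higher and 1 lower in shoots at 3 h, beside 15.4% and 13.2%. The rescaled counts were 1 higher and 2 lower at 30 min (3.18% and 2.22%), and 2 higher and 4 lower in roots (23% and 22.2%). The bZIP11 match Solyc03g033730, present in the root table, had 72.0, 82.0 and 73.9 normalized counts in cold roots, against 295.0, 394.5 and 518.5 in ambient roots. Its difference was -2.36 (log2, adjusted p = 6.32e-06), and the groups did not overlap.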

How the data were processed

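RNA-seq libraries of tomato shoots and roots were analysed from the deposited tables. The authors used BBMap version 37.93 for mapping to the tomato genome and its organelles (ITAG annotation 3.2), featureCounts for counts per gene and edgeR's TMM for normalization. The deposited signal values are these normalized counts. They are not whole numbers, whole reads could not be recovered, and depth is therefore unknown here, so no count model was run. Tables of shoots and roots were normalized apart and tested apart. The log2 of each value plus 1 entered limma (version 3.58.1, under R version 4.3.3 and data.table version 1.17.8) with a variance trend, 6 shoot groups in 1 fit and 3 root groups in another. The threshold for a call was an adjusted p of 0.01 by the method of Benjamini and Hochberg. The shoot fit keeps T0 of each batch apart. The batch of the root libraries is not given in the sources used here. All members are described, and for TPS7 and HAD the 3 named genes of highest correlation in each organ. The members and lists were chosen with earlier results of these data known. Alternatives covered the pseudocount, the filter, rescaling, moderation, the replicate number as a block, the libraries in the fit, the T0 used, the threshold and each library left out in turn. Names of other pathway genes, protein and promoter sequences were not used here, since the reference tables hold none for these identifiers.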

Additional observations from a re-analysis of the deposited data

Results flagged for a closer look

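The difference between 4°C and 24°C in shoots changed between 30 min and 3 h for 3 members by limma's test of that change. It became more positive by 1.38 (log2) for TPS7, with every 4°C library above every 24°C library at both times. It became more positive by 2.62 for HAD and more negative by -0.79 for Solyc08g076650, each also without overlap of the groups at either time. Each time had its own batch with both temperatures, so time and batch cannot be told apart in this change. Solyc01g005210 had every cold library below every ambient one in shoots at 3 h and every cold library above every ambient one in roots. By limma neither difference was called (adjusted p = 0.0183 in shoots and 0.0163 in roots). On rescaling the shoot difference was -0.05 (adjusted p = 0.739), while the root difference was 0.39 and called (adjusted p = 0.00235). The root difference minus the shoot difference was 0.59 (log2), and this was not tested because shoots and roots were normalized apart.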

How the results depend on the processing

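Of 27 calls of single members, 19 were kept under every alternative other than the looser threshold and 8 were lost under at least 1. Those of TPS7 and HAD in shoots at 3 h, TPS7 in roots, and TPS7, HAD and Solyc08g076650 for the change with time were among those kept. After rescaling over nuclear genes the counts were 5 higher and 1 lower in shoots at 3 h, 3 higher in roots, 3 higher and 0 lower for 3 h 4°C shoots against T0, 1 higher and 3 lower for 24°C roots against T0 and 4 higher between the T0 batches. With only the libraries compared in the fit they were 0 higher in shoots at 30 min, 4 higher and 3 lower in shoots at 3 h, 2 higher and 3 lower in roots, 4 lower for 3 h 24°C shoots against T0, 1 higher and 1 lower for 24°C roots against T0 and 1 higher between the T0 batches. At an adjusted p under 0.05 they were 1 lower in shoots at 30 min, 2 higher in roots, 2 lower for 30 min 4°C shoots against T0, 3 lower for 30 min 24°C shoots, 1 lower for 4°C roots and 4 higher between the T0 batches. The looser threshold also added Solyc07g006500 higher and Solyc01g005210 lower in shoots at 3 h, and Solyc07g062140 lower in roots. Against T0 at 24°C and 3 h it added Solyc07g006500 lower in shoots, and Solyc07g062140 higher and Solyc01g005210 lower in roots. With the mean of T0 of both batches 2 were lower for 30 min 24°C shoots, and at 3 h Solyc08g076650 at 4°C and Solyc07g006500 at 24°C gained a lower call while Solyc07g062140 lost its lower call at both temperatures. With robust moderation or a minimum of 50, Solyc07g062140 was called higher in 24°C roots against T0 (0.30, adjusted p = 0.00988 and 0.00982).

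Same-numbered libraries of the 4°C and 24°C groups correlated at -0.02 to 0.13 in their deviations from the group means. Differently numbered ones correlated at -0.13 to 0.12. No pairing was visible, but groups of 3 libraries cannot exclude it. With the replicate block 1 member was lower in shoots at 30 min, 3 were lower in shoots at 3 h, Solyc01g005210 being added (-0.32, adjusted p = 0.00636), and the counts were 0 lower for 3 h 4°C shoots and 1 higher for 24°C roots against T0.

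Leaving out 1 library in turn gave 1 to 2 lower in shoots at 3 h, 1 to 2 higher and 1 to 2 lower in roots, 0 to 1 lower for 30 min 4°C shoots and 0 to 1 lower for 3 h 4°C shoots against T0, 1 to 3 higher and 1 to 4 lower for 24°C roots against T0, and 1 to 3 higher between the T0 batches. Between the batches, Solyc04g025940 was called higher without T0 replicate 3 (0.43, adjusted p = 0.00643). For the change with time, Solyc07g006500 was called higher without 30 min 4°C replicate 2 (1.04, adjusted p = 0.000361). The cause of these moves was not tested.

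Only differences that were not called changed sign. On rescaling, Solyc01g005210 in shoots at 30 min was 0.0013 and Solyc02g071590 in shoots at 3 h was 0.0202. Over single left-out libraries in shoots at 30 min, the range was -0.135 to 0.0774 for Solyc01g005210, -0.0146 to 0.169 for Solyc07g062140, -0.360 to 0.364 for Solyc02g071590 and -0.521 to 0.0547 for Solyc07g006500. It was -0.0131 to 0.0687 for Solyc07g062140 in shoots at 3 h and -0.265 to 0.0645 for Solyc02g071590 in roots. A minimum of 50 removes Solyc02g071590, which then has no value. Tests on whole reads were not run, since none could be recovered. The study reports a range of sequencing depth, but the deposited values hold none, and no limit was drawn from it here.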
